A study of Mus musculus with 17 samples.

Results

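MkP and preCFUE are a pair of progenitor populations from adult mouse bone marrow, purified by flow cytometry, and they stand on the megakaryocyte and the erythroid side of the branch that gives platelets and red cells. The members are the 6 arrays whose titles give these gates, 3 of MkP and 3 of preCFUE, of 17 arrays in all. The MkP gate was Lin-Sca1-Kit+Itga2b+Slamf1+, and the preCFUE gate was Lin-Sca1-Kit+Itga2b-FcgRlowSlamf1+Enghigh. A related fraction, preMegE (Lin-Sca1-Kit+Itga2b-FcgRlowSlamf1+Englow, 5 arrays), carries both potentials and serves as a further level beside them. The other arrays, 3 of preGM (Lin-Sca1-Kit+Itga2b-FcgRlowSlamf1-Englow) and 3 of CLP (Lin-Sca1lowKitlowIL7r+Flk2+), entered the fit only for their estimate of the spread. The titles give only gates, and the short names MkP, preCFUE, preGM and CLP follow general usage for them. All mice were 10 to 14 weeks old, per the labels, with no strain, genotype or treatment stated. A free-text description repeated on every array names a different gate, and the titles were followed instead. No label says whether the replicates are different animals or different sorts, and the p-values therefore reflect array-to-array spread that may be technical.

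Megakaryocytes and red cells come from shared precursors that use GATA1, TAL1 and their partners. Along the megakaryocyte branch, ETS factors such as FLI1 and ERG act with RUNX1 on genes of platelet receptors, granules and signalling, and the cells later copy their genome without dividing. Along the erythroid branch, KLF1 acts on genes of the membrane skeleton, blood groups, heme synthesis and iron uptake, while colony-forming cells divide fast under erythropoietin. Values below are RMA intensities (the summarised brightness of a probe set, on a linear scale). A log2 fold change is the mean of log2(intensity + 16) in MkP minus that in preCFUE, given with its SE, and it understates the change of dim genes. Adjusted p-values are those of limma after Benjamini-Hochberg adjustment over 18193 genes, and a gene passed the test at an adjusted p under 0.05.

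Across the 6 arrays, correlations over all genes were 0.979 to 0.985 within MkP, 0.985 to 0.990 within preCFUE and 0.918 to 0.942 between them. The 75th percentile of intensity was 54.0 ± 2.60 in MkP and 61.5 ± 3.95 in preCFUE (SD, n = 3 each, exact two-sided permutation p = 0.1, the smallest that 3 against 3 arrays allow), while the median was 17.8 in MkP and 16.6 in preCFUE. The Gapdh 3-prime over 5-prime log2 ratio, a sign of RNA shortening, was 3.85 ± 0.41 in MkP and 3.49 ± 0.62 in preCFUE (exact permutation p = 0.6). The same ratio for Actb was 4.48 ± 0.74 in MkP and 3.85 ± 0.41 in preCFUE (exact permutation p = 0.3). Among genes that define the lineages, Itga2b, Pf4, Itgb3, Gp9, Gp1bb, Vwf and Clec1b passed as higher in MkP and Gp5 did not pass, while Klf1, Epor, Ermap, Rhd, Rhag, Car1, Car2, Aqp1 and Tfrc passed as lower. Itga2b itself separates the 2 gates, so its rise is no separate check of identity. Markers of 8 other cell types were mostly dim in both fractions. Neutrophil markers gave 0 calls of 10 in limma (1 at an unadjusted p under 0.05, and 2 higher without MkP replicate 2), with a summed level of 175 to 1657 in MkP, against 273 to 483 in preCFUE, and Ngp, the brightest, measured 852, 36.2 and 268 in the MkP arrays, against 109.7, 97.4 and 178 in the preCFUE arrays. Lists of mature B and plasma cells (1 of 10 higher), T and NK cells (1 of 11), eosinophils (0 of 6) and dendritic cells (0 of 10) gave 0 lower calls, and with 1 array left out each gave 0 to 2 higher.

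A total of 2959 of 18193 genes (16.3%) passed the test, 1009 of them higher in MkP (5.55% of all genes) and 1950 lower (10.7%). The median log2 fold change over all genes was 0.0051. Under quantile normalization, which makes the distribution of values the same on every array, 1300 genes were higher and 1184 lower, so 52.3% of calls were on the higher side in place of 34.1%. A change of at least 2-fold was found in 417 higher genes (2.29%) and 906 lower genes (4.98%). The 3 MkP and 3 preCFUE values did not overlap in 6773 genes (37.2%), among them 2925 of the 2959 that passed. Leaving out 1 array lowered the total to 1910 without MkP replicate 3, 1789 without preCFUE replicate 1 and 1955 without preCFUE replicate 3. In bulk RNA, fewer cells of a type and less RNA per cell cannot be told apart, here and in each group below. List counts below can be set beside the 5.55% and 10.7% of all genes, as a description only. The lists and their members were picked with earlier results of these data known, so the comparison cannot test for enrichment. Those shares are also low for bright genes. When only the 10916 genes with the higher mean intensities were tested, 890 passed as higher and 2185 as lower, larger shares in both directions.

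**Figure D1:**
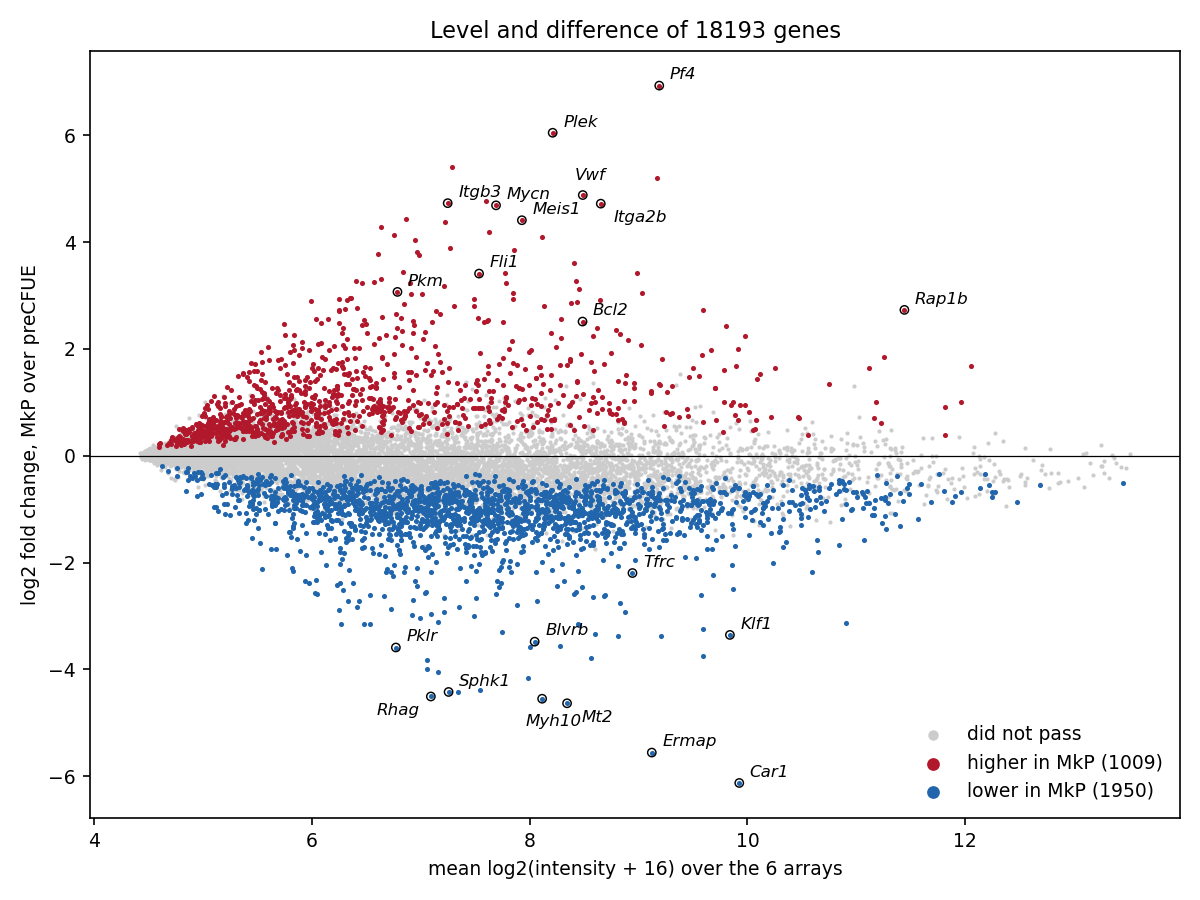
Mean log2(intensity + 16) over the 6 arrays (x axis) against the log2 fold change of MkP over preCFUE (y axis) for 18193 genes, with genes that passed the test coloured by direction and lineage genes labelled. The 1009 higher genes reach a log2 fold change of 6.93 at Pf4, and the 1950 lower genes reach -6.13 at Car1.

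The largest rises in MkP included many platelet and megakaryocyte genes. Pf4, the chemokine platelet factor 4 of alpha granules, measured 6373, 6772 and 6148 in the MkP arrays, against 36.97, 30.9 and 43.7 in the preCFUE arrays (log2 fold change 6.93 ± 0.18, adjusted p = 2.16e-11). All MkP values lay far above all preCFUE values, which were near the preMegE mean of 50.9 ± 10.04. Next came Plek, which encodes pleckstrin, the main protein kinase C substrate of platelets, with a log2 fold change of 6.05 ± 0.36. The others among the 15 largest rises were Cavin2 (5.41), a caveola coat gene, Tmsb4x (5.20), whose product binds actin monomers, Vwf (4.88), the Src-like adaptor Sla (4.76), Itgb3 (4.73), Itga2b (4.72), Mycn (4.69), Gp1bb (4.42), Meis1 (4.41), Itih5 (4.38), Slc35d3 (4.29), Ctla2a (4.19) and Mmrn1 (4.14). The adjusted p of these 15 genes ran from 2.16e-11 to 4.24e-06. One of them, Itga2b, is the gene by which the gates were separated.

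The largest falls included erythroid genes and genes of transport and metabolism. Car1, a carbonic anhydrase of red cells, measured 199.5, 50.4 and 93.98 in the MkP arrays, against 8137, 8463 and 7728 in the preCFUE arrays (log2 fold change -6.13 ± 0.33, adjusted p = 1.09e-08). Ermap, the membrane protein of the Scianna blood group, measured 124, 34.2 and 59.95 in the MkP arrays, against 3905, 4563 and 3088 in the preCFUE arrays (log2 fold change -5.56 ± 0.37, adjusted p = 1.41e-07). For both genes every preCFUE value lay far above every MkP value, and the MkP values of each gene differed among themselves, with replicate 1 the highest and replicate 2 the lowest. The remaining falls were Mt2 (-4.63), Myh10 (-4.55), Rhag (-4.51), Trib2 (-4.43), Sphk1 (-4.42), Slc40a1 (-4.38), Atp1b2 (-4.17), Slc38a5 (-4.05), Col5a1 (-3.99), Rhd (-3.83), Ces2g (-3.78), Cd24a (-3.75) and Pklr (-3.59). Their adjusted p ran from 1.05e-10 to 2.5e-06.

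**Figure D2:**
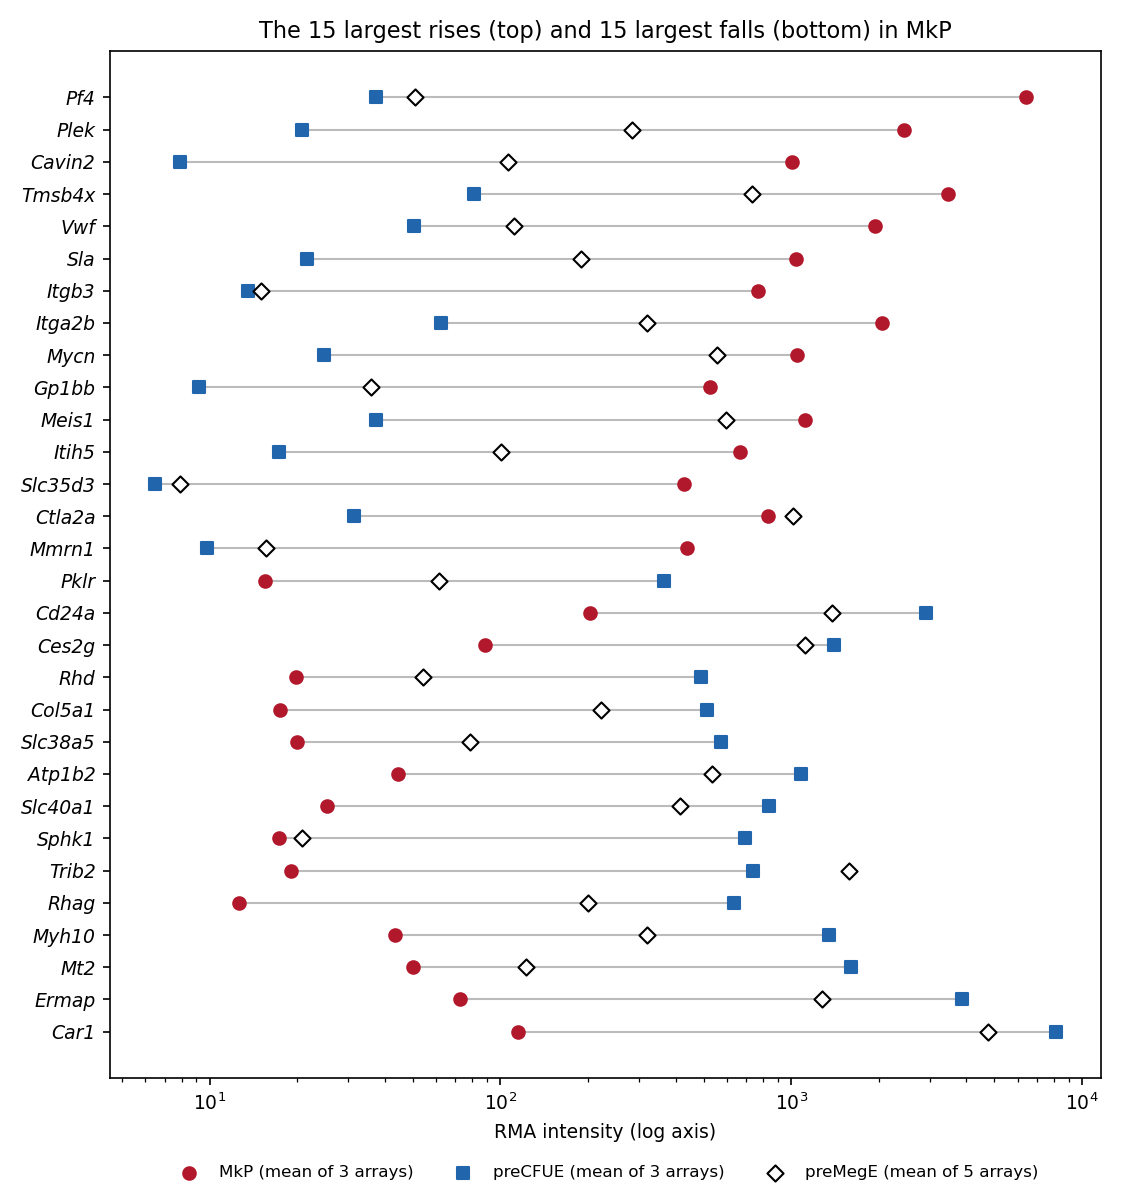
Mean RMA intensity on a log axis in MkP (circles), preCFUE (squares) and preMegE (diamonds) for the 15 genes that rose most and the 15 that fell most among those past the test, in order of log2 fold change. The preMegE mean lies between the MkP and preCFUE means for 28 of the 30 genes. These genes were chosen for large gaps, so the count does not place preMegE midway. The preMegE mean is close to 1 end for Itgb3 (15.1, against 13.5 in preCFUE) and Sphk1 (20.7, against 17.3 in MkP).

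The genes behind the gates differed in how far they followed them. Itga2b, the integrin chain that separates the gates, measured 1943, 2343 and 1886 in the MkP arrays, against 61.6, 59.1 and 66.8 in the preCFUE arrays (log2 fold change 4.72 ± 0.18, adjusted p = 3.04e-10). Slamf1, on which both gates are positive, measured 52.4, 66.5 and 57.1 in the MkP arrays, against 19.01, 19.7 and 22.6 in the preCFUE arrays (log2 fold change 1.03 ± 0.10, adjusted p = 9.24e-06), so its transcript was dim in preCFUE and higher in MkP on every array. Kit, the stem cell factor receptor on which both gates are also positive, measured 169.8, 248 and 136 in the MkP arrays, against 585, 503 and 533 in the preCFUE arrays (log2 fold change -1.51 ± 0.28, adjusted p = 0.00222), lower on every MkP array. Eng, high by gate in preCFUE only, measured 220.3, 216 and 166 in the MkP arrays, against 200.4, 226 and 286 in the preCFUE arrays, and the groups overlapped (log2 fold change -0.22 ± 0.15, adjusted p = 0.38). Of the Fc gamma receptor genes, Fcgr2b passed as higher at 0.56 ± 0.15, a call lost in a fit of only the 6 MkP and preCFUE arrays, with trended prior variance, without MkP replicate 1, without MkP replicate 2 or without preCFUE replicate 1 (adjusted p = 0.0569 to 0.0972).

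More platelet adhesion receptors were higher than lower in MkP: of 19 genes measured, 10 passed as higher and 2 as lower (0 lower without MkP replicate 3 or preCFUE replicate 3), with a median log2 fold change of 0.64. Itgb3, the partner of Itga2b in the fibrinogen receptor, measured 896, 757 and 659 in the MkP arrays, against 12.2, 16 and 12.4 in the preCFUE arrays. Gp1bb, a chain of the receptor for von Willebrand factor, measured 530.1, 578 and 467 in the MkP arrays, against 8.64, 10.2 and 8.62 in the preCFUE arrays, and its partner Gp9 rose by 1.85 ± 0.13. The groups did not overlap for any of these genes. Cd9, a tetraspanin of the platelet surface, rose by 3.02 ± 0.18, and Selp, the P-selectin stored in alpha granules, by 2.95 ± 0.094. Icam2, an adhesion ligand of endothelium and platelets, was 1 of the 2 that went the other way (-1.05 ± 0.25, adjusted p = 0.0104), a call lost without MkP replicate 3 or without preCFUE replicate 3 (adjusted p = 0.0542 to 0.0551). Gp5, another chain of the von Willebrand receptor, was 169.7 ± 31.8 in MkP and 113 ± 39.98 in preCFUE and did not pass (log2 fold change 0.56 ± 0.30, adjusted p = 0.251), though it passed under quantile normalization.

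Among 35 platelet granule genes, 18 passed as higher and 0 as lower, with a median of 0.55. Vwf, which encodes von Willebrand factor, measured 1739, 1909 and 2167 in the MkP arrays, against 49.2, 41.9 and 60.6 in the preCFUE arrays (log2 fold change 4.88 ± 0.24, adjusted p = 4.07e-09). Slc35d3, needed in mice for dense granules, measured 510.4, 404 and 366 in the MkP arrays, against 6.60, 6.18 and 6.69 in the preCFUE arrays, and Mmrn1, a factor V binding protein of alpha granules, 429.8, 398 and 487 in the MkP arrays, against 8.57, 11.7 and 8.99 in the preCFUE arrays. In each case all MkP values stood above all preCFUE values. Rab27b, a small GTPase of dense granule release, rose by 3.28 ± 0.12, and Angpt1, a ligand of the receptor Tek that megakaryocytes make, by 3.11 ± 0.44. Ppbp, the platelet basic protein, rose by 2.04 ± 0.19, and F5, coagulation factor V, by 0.97 ± 0.068. Srgn, the granule proteoglycan serglycin, was 3013 ± 364 in MkP and 2157 ± 205 in preCFUE and did not pass (log2 fold change 0.48 ± 0.22, adjusted p = 0.166), though it passed under quantile normalization.

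Among the platelet lists, signalling had the highest share of called members: 31 of 44 genes passed as higher and 0 as lower, with a median of 1.23. They covered receptors, effectors and adaptors. Among receptors for soluble agonists, the thrombin receptors F2r (1.85 ± 0.21) and F2rl2 (1.85 ± 0.21), the thromboxane receptor Tbxa2r (1.25 ± 0.15) and the ATP-gated channel P2rx1 (1.07 ± 0.19) all rose. Downstream of immune-type receptors, the kinase Syk (2.17 ± 0.16), the adaptor Lcp2 (1.64 ± 0.28) and the phospholipase Plcg2 (2.87 ± 0.13) rose. Rap1b, the GTPase that acts in integrin activation, measured 7194, 8884 and 5719 in the MkP arrays, against 1346, 765 and 1170.4 in the preCFUE arrays. Rgs18, a regulator of G protein signalling found in platelets, measured 1013, 1335 and 936 in the MkP arrays, against 156, 95.5 and 148 in the preCFUE arrays, and the nitric oxide receptor subunit Gucy1a1 113, 183 and 186 in the MkP arrays, against 6.61, 8.24 and 7.41 in the preCFUE arrays. Prkg1, the kinase that responds to the cyclic GMP this receptor makes, rose by 2.66 ± 0.12. For Rap1b, Rgs18, Gucy1a1 and Prkg1 the MkP values did not overlap those of preCFUE.

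Of 34 cytoskeleton genes used by megakaryocytes, 16 passed as higher and 2 as lower, with a median of 0.45. Tmsb4x measured 3389, 3571 and 3447 in the MkP arrays, against 91.6, 53.6 and 98.1 in the preCFUE arrays. The alpha tubulin Tuba8 rose by 3.76 ± 0.23, the focal adhesion protein Zyx by 3.43 ± 0.28 and the tropomyosin Tpm4 by 3.30 ± 0.25. Tubb1, the beta tubulin of the platelet marginal band, rose less (1.33 ± 0.18). Calponins split: Cnn2 rose by 2.56 ± 0.29 and Cnn3 fell, with a log2 fold change of -2.90 ± 0.25. The non-muscle myosin heavy chains also went apart in size. Myh10, the myosin IIB chain of the contractile ring, measured 58.9, 22.4 and 49.3 in the MkP arrays, against 1165, 1733 and 1148 in the preCFUE arrays, lower on every MkP array (log2 fold change -4.55 ± 0.24, adjusted p = 1.09e-08). Myh9, the myosin IIA chain of platelets, was 3156 ± 309 in MkP and 1321 ± 426 in preCFUE and did not pass (log2 fold change 1.30 ± 0.44, adjusted p = 0.0622), though it passed in 9 of 19 other settings. Spectrin genes, chosen after their values were seen, also differed. Sptan1, the non-erythroid alpha chain, measured 1055, 1143 and 1179.6 in the MkP arrays, against 47.1, 51.7 and 54.7 in the preCFUE arrays (log2 fold change 4.09 ± 0.23, adjusted p = 1.92e-08). Sptbn1, the non-erythroid beta chain, measured 943, 1409 and 878 in the MkP arrays, against 78.1, 119 and 90.6 in the preCFUE arrays (log2 fold change 3.27 ± 0.27, adjusted p = 1.22e-06). Both were higher on every MkP array. Sptb, the erythroid beta chain, was 44.8 ± 5.71 in MkP and 34.7 ± 5.54 in preCFUE and did not pass (adjusted p = 0.127), though it passed with the mean over its probe sets.

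Transcription factors linked to the megakaryocyte branch, or to both branches, gave 13 higher and 4 lower of 30 genes, with a median of 0.52. Of the ETS factors, Fli1, a regulator of megakaryocyte genes, measured 401, 725 and 697 in the MkP arrays, against 26, 51.5 and 48.9 in the preCFUE arrays (log2 fold change 3.41 ± 0.33, adjusted p = 5.95e-06), while Erg rose by 2.48 ± 0.25 and Etv6 by 1.72 ± 0.26. Meis1, a homeobox cofactor also active in stem cells, measured 1126, 1324 and 906 in the MkP arrays, against 41.8, 28.3 and 41.6 in the preCFUE arrays. Mef2c rose by 3.43 ± 0.22, Runx1 by 2.04 ± 0.25, Mecom by 2.02 ± 0.15 and Gata2 by 1.81 ± 0.22. Gata2 was the 1 of 11 mast cell and basophil markers that passed, with a summed level of 1148 to 1430.0 in MkP, against 403 to 583 in preCFUE, and Cpa3 was 29.7 ± 8.60 in MkP and 25.9 ± 3.23 in preCFUE. Ldb1 (-1.19 ± 0.26) and Tal1 (-0.68 ± 0.14), partners of GATA1 in 1 complex, and the repressor Gfi1b (-0.90 ± 0.20) were 3 of the 4 that fell, and 2 of the 4 passed under quantile normalization, where the call of Tal1 was lost (adjusted p = 0.231). Levels of Lmo2, the bridge of that complex, were 1814 ± 408 in MkP and 1576 ± 726 in preCFUE and did not pass (log2 fold change 0.27 ± 0.41, adjusted p = 0.733).

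Erythroid transcription factors gave 3 higher and 11 lower of 33 genes, with a median of -0.26. Under quantile normalization the median was -0.0064, with 4 higher and 9 lower, and 1 gene was higher without MkP replicate 1 or preCFUE replicate 3. Klf1, the main activator of red cell genes, measured 316, 342 and 182 in the MkP arrays, against 3065, 2678 and 3009 in the preCFUE arrays (log2 fold change -3.35 ± 0.23, adjusted p = 2.11e-07). Its target Klf3, a repressor, fell to 75.6 ± 20.03 in MkP, against 479 ± 45.5 in preCFUE (-2.45 ± 0.32). Nfia (-2.14 ± 0.28), Ikzf1 (-1.92 ± 0.15), Myb (-1.19 ± 0.15) and Gata1 (-0.97 ± 0.16) were lower too. The Myc family split between the branches. Myc measured 218, 237 and 234 in the MkP arrays, against 653, 743 and 578 in the preCFUE arrays (log2 fold change -1.45 ± 0.27, adjusted p = 0.00193), and Mycn measured 1099.9, 1219 and 819 in the MkP arrays, against 26.3, 23.6 and 24.1 in the preCFUE arrays (log2 fold change 4.69 ± 0.30, adjusted p = 7.64e-08), so Myc was higher in preCFUE and Mycn in MkP, with no overlap of arrays for either gene. Mycn has 3 probe sets, and 0 of the others passed in the same direction, though its call held with the mean over its probe sets.

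**Figure D3:**
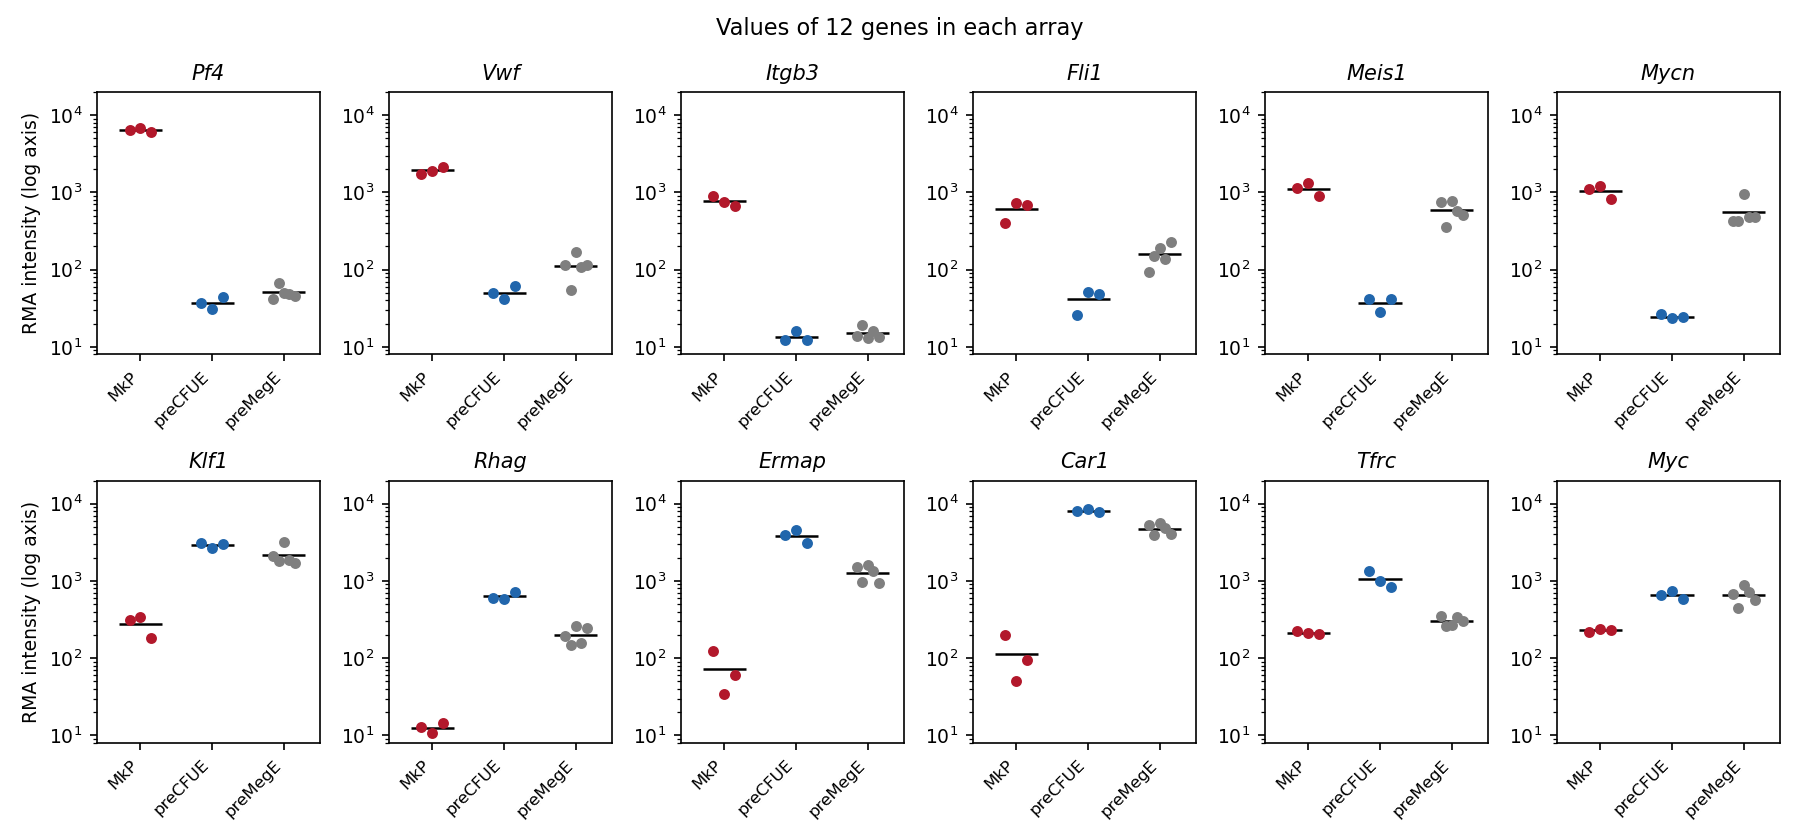
RMA intensity on a log axis (y) of 12 genes in each MkP, preCFUE and preMegE array (points), with a bar at the group mean. For Pf4, Vwf, Itgb3, Fli1, Meis1 and Mycn all 3 MkP values lie above all 3 preCFUE values, and for Klf1, Rhag, Ermap, Car1, Tfrc and Myc they lie below.

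The stretches just upstream of the start sites are shown for the granule, transcription factor and membrane genes with the largest changes, since many members of these lists differed and GATA, ETS and KLF factors bind short motifs near such genes. Of the 6 genes chosen by size of change (Pf4, Ermap, Vwf, Itgb3, Mycn and Rhag), 4 were in the RefSeq promoter table of build GRCm38.p6, and 150 bases before each start site are printed 5′ to 3′ on the gene's strand. Capitals mark matches on either strand to a GATA motif (AGATAA or TGATAA), an ETS motif (GGAAGT) or a KLF motif (CCNCNCCC), which may overlap.
Pf4, chr5:90772285-90772434 (+ strand): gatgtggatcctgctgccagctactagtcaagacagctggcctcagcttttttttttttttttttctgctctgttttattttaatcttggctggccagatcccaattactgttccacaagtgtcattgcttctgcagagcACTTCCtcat
Mycn, chr12:12941837-12941986 (- strand): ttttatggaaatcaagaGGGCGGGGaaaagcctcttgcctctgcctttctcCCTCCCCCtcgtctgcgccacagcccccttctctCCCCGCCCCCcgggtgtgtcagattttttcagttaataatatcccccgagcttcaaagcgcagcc
Ermap, chr4:119189996-119190145 (- strand): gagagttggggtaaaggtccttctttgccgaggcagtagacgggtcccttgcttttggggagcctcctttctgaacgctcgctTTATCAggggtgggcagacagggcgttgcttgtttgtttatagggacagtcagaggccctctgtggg
Rhag, chr17:40810999-40811148 (+ strand): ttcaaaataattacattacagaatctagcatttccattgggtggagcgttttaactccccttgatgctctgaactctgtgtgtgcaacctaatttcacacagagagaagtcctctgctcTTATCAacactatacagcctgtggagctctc
The Pf4 window held 1 ETS match, read on the opposite strand. The Mycn window held 4 KLF matches, 2 of which overlap. The Ermap and Rhag windows each held 1 GATA match. Among all 32851 windows of this length in the table, 9.65% held the GATA motif, 13.6% the ETS motif and 38.1% the KLF motif, so single matches are common, and a match describes letters and not binding. Over genes that passed and differed at least 2-fold, the ETS motif stood in 13.4% of 462 windows of genes higher in MkP and 18.8% of 924 windows of genes lower in MkP, the GATA motif in 6.93% of the higher and 5.41% of the lower set, and the KLF motif in 59.7% of the higher and 53.0% of the lower set.

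Red cell membrane and blood group genes were mostly lower in MkP where they passed: 20 of 35 genes were lower in MkP and 3 higher, with a median of -1.05. Rhag, the glycoprotein that carries the Rh complex, measured 12.9, 10.8 and 14.3 in the MkP arrays, against 595, 591 and 724 in the preCFUE arrays, and Rhd, the Rh polypeptide, 28.2, 15.5 and 15.7 in the MkP arrays, against 539.6, 423 and 505 in the preCFUE arrays. Aqp1, the water channel of red cells, measured 84.1, 98.7 and 48.1 in the MkP arrays, against 1406, 849.9 and 952 in the preCFUE arrays. All preCFUE values of the 3 genes were above all MkP values. Other falls were those of Kel (-3.15 ± 0.21), the Kell blood group protease, Cd24a (-3.75 ± 0.33), Cldn13 (-2.82 ± 0.20), Tspo2 (-2.72 ± 0.20) and the tetraspanin Tspan33 (-2.43 ± 0.24). Ank1, the ankyrin that ties the spectrin skeleton to the membrane, measured 82.1, 67.7 and 82.6 in the MkP arrays, against 352, 631 and 463 in the preCFUE arrays (log2 fold change -2.38 ± 0.22, adjusted p = 4.46e-06). The 3 members on the other side were Slc2a1 (2.75 ± 0.11), the glucose transporter GLUT1, Slc14a1 (1.98 ± 0.24), the urea transporter of the Kidd blood group, and Cd47 (0.73 ± 0.16), whose call was lost with the mean over its probe sets.

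Heme and iron genes were lower in MkP wherever they passed, while under quantile normalization 1 gene of each list passed as higher. Of 22 heme pathway genes 0 were higher and 11 lower (median -0.92, and 7 lower without preCFUE replicate 1), and of 23 iron genes 0 were higher and 10 lower (median -0.53). Heme synthesis enzymes were among the falls: Alad (-2.05 ± 0.27), Urod (-1.69 ± 0.22), Fech (-1.59 ± 0.19) and Cpox (-1.33 ± 0.26). Blvrb, a biliverdin reductase abundant in red cells, measured 62.8, 86.2 and 45.3 in the MkP arrays, against 933, 654 and 1064 in the preCFUE arrays (log2 fold change -3.48 ± 0.24, adjusted p = 2.09e-07). Tfrc, the transferrin receptor, measured 223, 211 and 208 in the MkP arrays, against 1339.9, 1008 and 827 in the preCFUE arrays (log2 fold change -2.20 ± 0.29, adjusted p = 0.00014), and Slc40a1, the iron exporter ferroportin, 26.9, 17.5 and 31.7 in the MkP arrays, against 874, 830.0 and 802 in the preCFUE arrays (log2 fold change -4.38 ± 0.18, adjusted p = 1.10e-09). Both the import and the export gene were thus higher in preCFUE on every array. Aco1 (-2.02 ± 0.42), the cytosolic aconitase that also binds iron-responsive elements, Glrx5 (-2.01 ± 0.25), a carrier of iron-sulfur clusters, and Tfr2 (-1.71 ± 0.17) fell as well. The erythroid heme enzyme gene Alas2 was 14.8 ± 2.93 in MkP and 12.8 ± 2.14 in preCFUE, under or near 16 in both fractions. Of 12 globin genes listed, 6 were measured and 6 were not, so the level of the latter is unknown here. Of the 6 measured, 0 passed in limma (0 at an unadjusted p under 0.05), with means of at most 24.5 in MkP and 24.4 in preCFUE. Of 16 carbonic anhydrase genes, 2 were lower, Car1 and Car2 (-1.57 ± 0.38), and 2 higher. The 2 higher calls fell to 0 without MkP replicate 1 or preCFUE replicate 3, and to 1 under quantile normalization and without MkP replicate 3, preCFUE replicate 1 or preCFUE replicate 2. Car2 was a call lost without MkP replicate 3 or without preCFUE replicate 1 (adjusted p = 0.0613 to 0.0629).

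Genes that handle peroxide, metal and lipid signals gave further differences. Of 28 peroxide and glutathione genes, 1 was higher and 14 lower (median -0.58, and 9 lower both under quantile normalization and without preCFUE replicate 1), among them Gstm5 (-2.64 ± 0.28), a glutathione transferase, and Gclm (-1.20 ± 0.18), a subunit of the first enzyme of glutathione synthesis. Gstt1 was the 1 on the higher side (1.40 ± 0.20). The metallothioneins Mt1 and Mt2, which bind zinc and copper, fell together: Mt2 measured 60, 35.7 and 54.4 in the MkP arrays, against 1388, 1757 and 1682 in the preCFUE arrays, and Mt1 194, 171 and 143 in the MkP arrays, against 1521, 2052 and 2145 in the preCFUE arrays. Slc39a8, a zinc importer, was also lower (-2.42 ± 0.40). Of 25 sphingosine-1-phosphate genes, 3 were higher and 3 lower. Sphk1, the kinase that makes this lipid, measured 22.7, 17.4 and 11.7 in the MkP arrays, against 744, 648 and 683 in the preCFUE arrays (log2 fold change -4.42 ± 0.15, adjusted p = 1.65e-10), and the phosphatase Sgpp1 (-1.76 ± 0.28) and the receptor S1pr4 (-1.37 ± 0.22) fell too. The ceramide synthase Cers5 (1.91 ± 0.30) and the transporter Spns2 (1.33 ± 0.18) were higher.

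Genes of ribosome assembly, tRNA charging, nucleotide synthesis and respiration were lower in MkP in more members than higher, and the counts moved with scaling. Of 39 ribosome biogenesis genes, 0 were higher and 24 lower (median -0.98), against 0 higher and 15 lower under quantile normalization. Of 19 aminoacyl-tRNA synthetase genes, 14 were lower (median -0.91), against 6 under quantile normalization, 9 without MkP replicate 1, 8 without MkP replicate 3 and 7 without preCFUE replicate 1. Of 46 respiratory chain and citrate cycle genes, 25 were lower (median -0.77), against 6 under quantile normalization and 7 to 17 with 1 array left out (10 without MkP replicate 1, 7 without MkP replicate 3, and 11, 14 and 9 without preCFUE replicates 1, 2 and 3). Of 37 purine, pyrimidine and folate genes, 2 were higher and 20 lower (median -0.71), against 4 higher and 11 lower under quantile normalization and 13 lower without preCFUE replicate 3. Among ribosome genes, falls included those of Polr1b (-1.71 ± 0.27), a subunit of RNA polymerase I, and Nolc1 (-1.52 ± 0.19), a nucleolar protein. Tars, the threonyl-tRNA synthetase, fell by 1.51 on the log2 scale. Sdhd, a subunit of succinate dehydrogenase, fell by 1.86 on the log2 scale, a call lost under quantile normalization and with any 1 of the 6 arrays left out (adjusted p = 0.0624 to 0.154). Among nucleotide genes, Mthfd1, a folate enzyme, measured 696, 842 and 613 in the MkP arrays, against 3032, 3652 and 3123 in the preCFUE arrays (log2 fold change -2.17 ± 0.19, adjusted p = 2.07e-06), and Gart, of purine synthesis, fell by 1.65 on the log2 scale. Asns, asparagine synthetase, fell to 157 ± 62.2 in MkP, against 1019 ± 195 in preCFUE (log2 fold change -2.62 ± 0.23, adjusted p = 2.05e-06). Of 33 amino acid response genes it was 1 of 7 lower, with 1 higher, against 3 lower under quantile normalization and 4 without either MkP replicate 1 or MkP replicate 3.

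**Figure D4:**
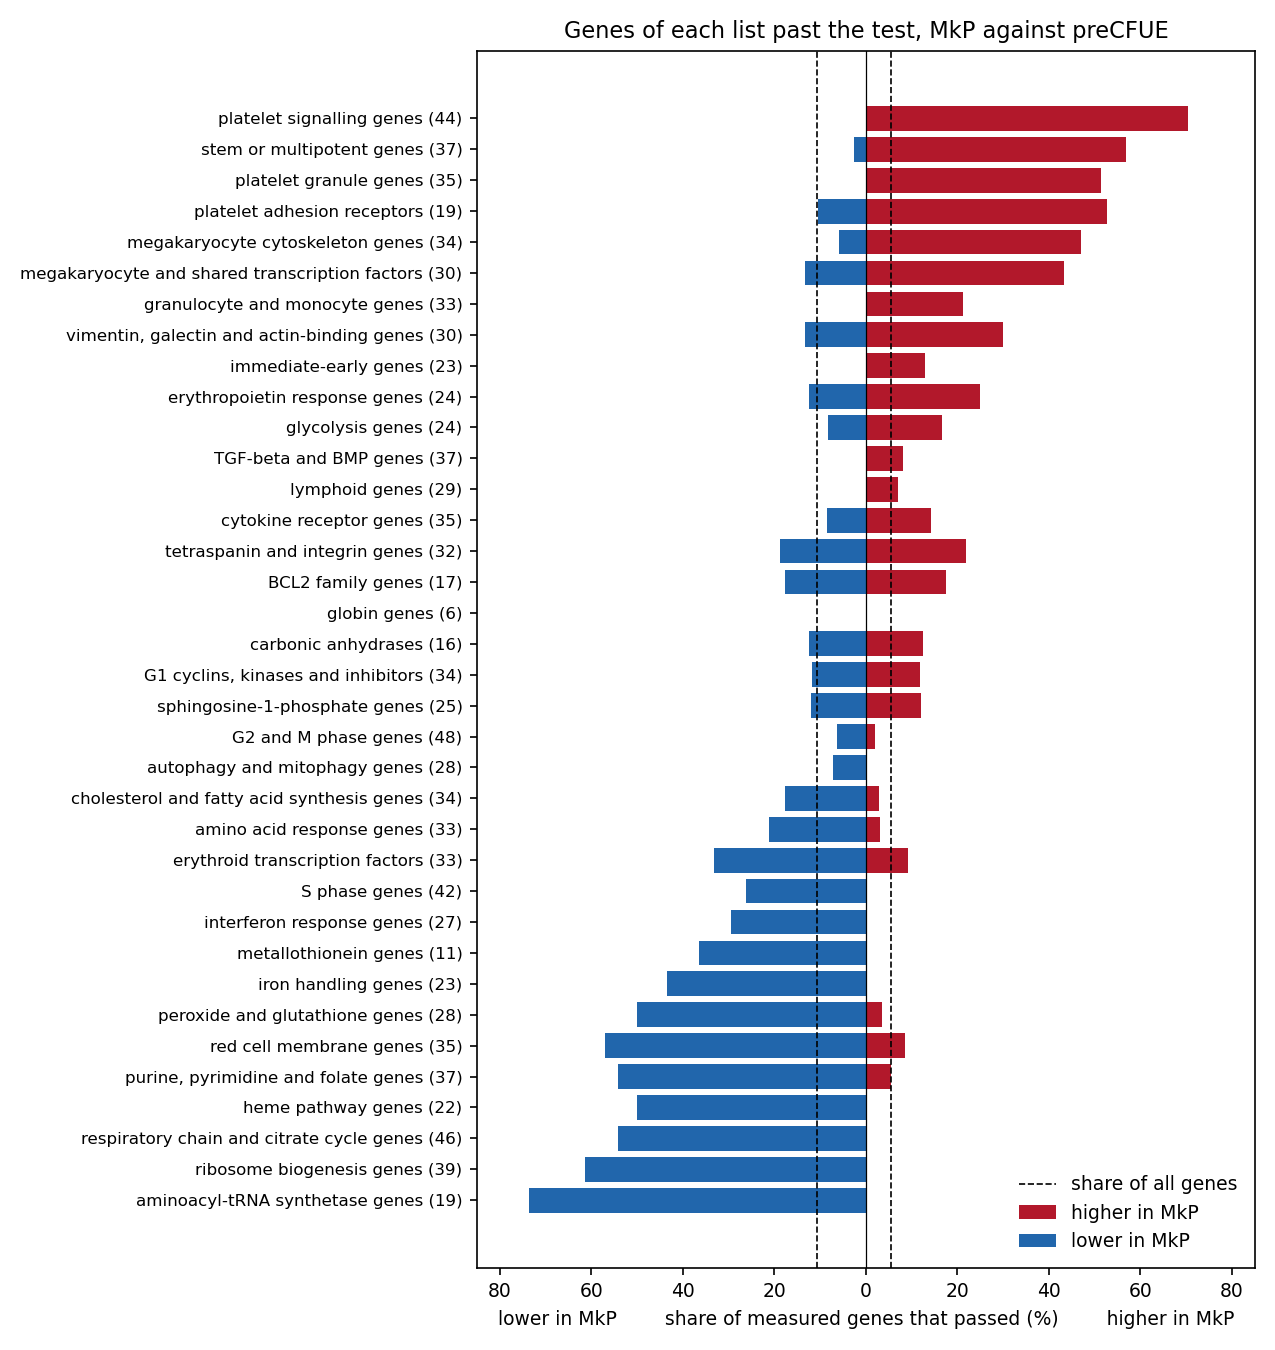
Share of the measured genes of each list that passed the test as higher in MkP (right of 0) and lower in MkP (left of 0), in percent, with the number measured beside each name. The dashed lines mark the 5.55% higher and 10.7% lower of all 18193 genes, and the platelet signalling list reaches furthest right while the aminoacyl-tRNA synthetase list reaches furthest left.

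Of 42 S phase genes, which act in DNA replication, 0 were higher and 11 lower (median -0.58), against 1 higher and 3 lower under quantile normalization and 2 to 7 lower with any 1 of the 6 arrays left out. The replication origin gene Cdc6 measured 194, 206 and 149.8 in the MkP arrays, against 782, 601 and 559 in the preCFUE arrays (log2 fold change -1.73 ± 0.46, adjusted p = 0.0196), a call lost under quantile normalization, without MkP replicate 3 or without preCFUE replicate 1 (adjusted p = 0.0624 to 0.0787). Orc1, of the origin recognition complex, was lower by 1.01 on the log2 scale. Of 48 G2 and M phase genes, 1 was higher and 3 lower, with a median of -0.07 that turned to 0.30 under quantile normalization (5 higher and 2 lower), and 1 lower without preCFUE replicate 3. The 1 higher was the phosphatase Cdc25b (1.00 ± 0.16). Ect2, the exchange factor that starts cleavage furrow ingression, measured 58.7, 33.5 and 45.9 in the MkP arrays, against 168, 146 and 189 in the preCFUE arrays, with all MkP values lower (log2 fold change -1.58 ± 0.31, adjusted p = 0.0032). Of 34 G1 genes, 4 were higher and 4 lower, with 2 lower without MkP replicate 3 or preCFUE replicate 1. Ccne1, cyclin E1, measured 173, 166 and 244 in the MkP arrays, against 837, 597 and 969 in the preCFUE arrays (log2 fold change -1.95 ± 0.26, adjusted p = 0.000112), while Ccnd3, cyclin D3, rose by 1.10 ± 0.18, the CDK inhibitor Cdkn2d by 1.23 ± 0.24 and the repressor E2f7 by 1.18 ± 0.22. Pcna, the replication clamp, was 1783 ± 531 in MkP and 2894 ± 963 in preCFUE and did not pass (log2 fold change -0.69 ± 0.53, adjusted p = 0.438).

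**Figure D5:**
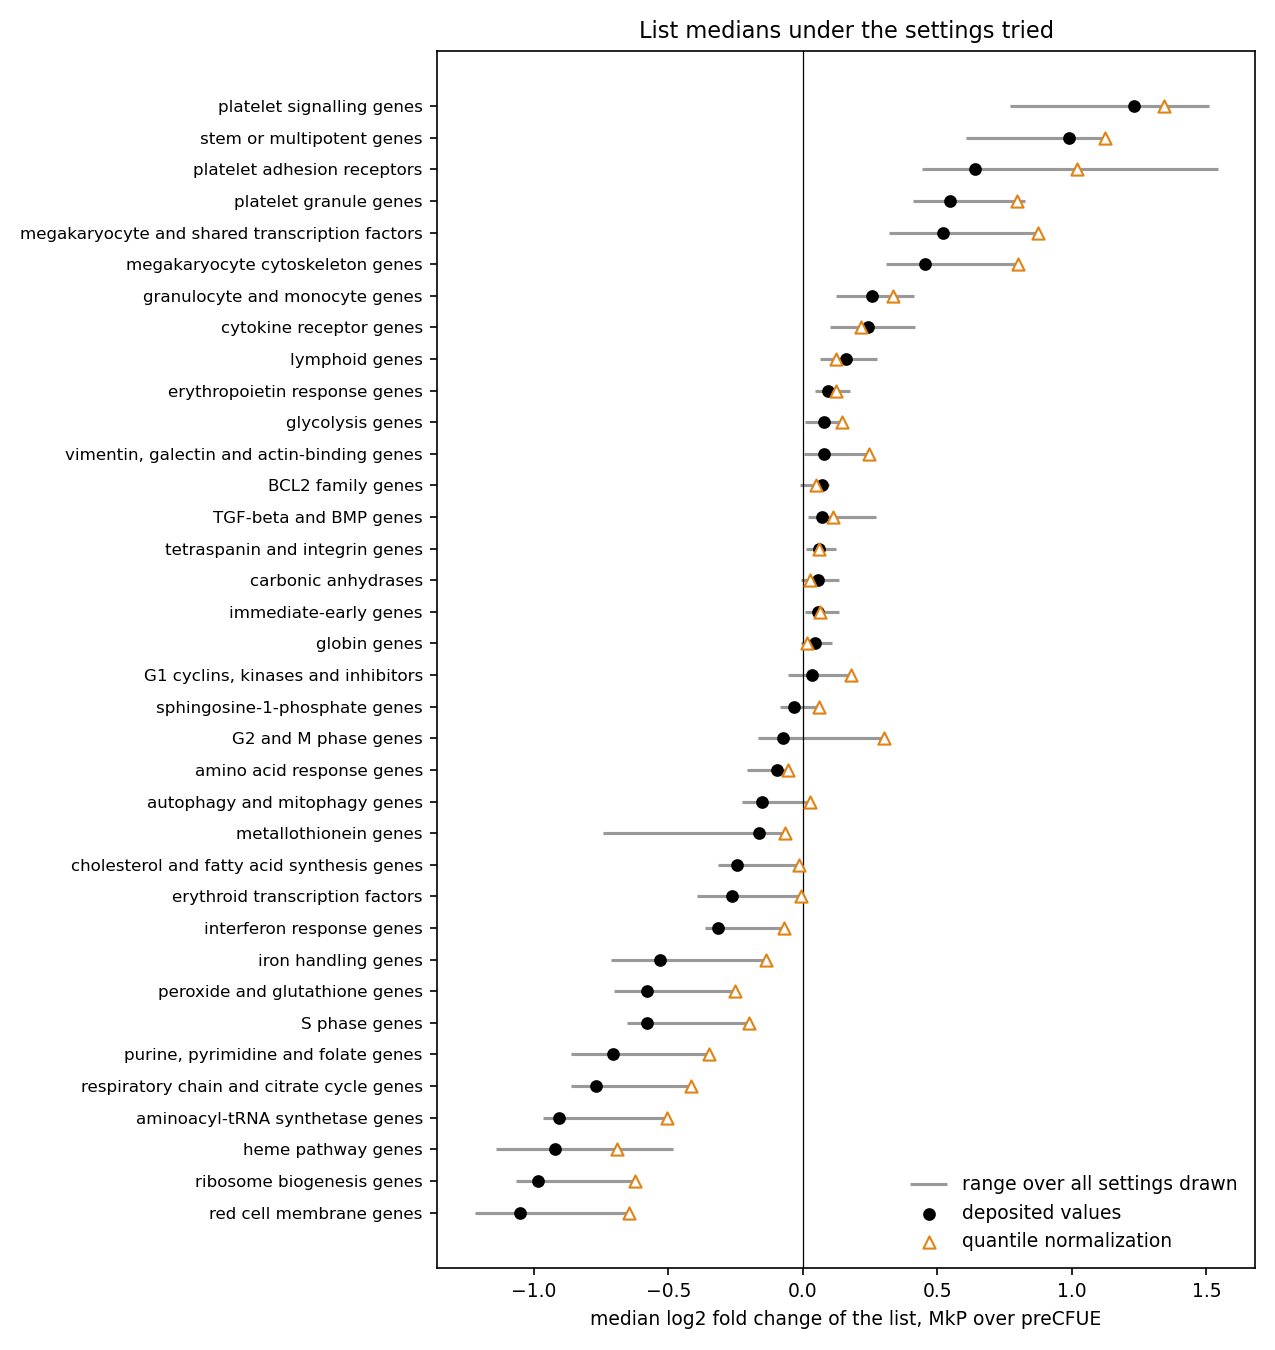
Median log2 fold change of MkP over preCFUE for each list with the deposited values (circles) and under quantile normalization (triangles), with a line over the range of all settings except the filter on SD over mean, which drops most genes. The platelet and stem lists stay above 0 and the red cell membrane, heme and ribosome biogenesis lists stay below 0 in each setting drawn.

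In several families, different members were higher in the 2 fractions. Pyruvate kinase was the clearest pair. Pkm, the isozyme of most tissues, measured 343, 341 and 237 in the MkP arrays, against 19.5, 23.4 and 23.4 in the preCFUE arrays (log2 fold change 3.07 ± 0.27, adjusted p = 2.31e-06), and Pklr, the isozyme of liver and red cells, 18.4, 14.97 and 13.2 in the MkP arrays, against 350.3, 314 and 433 in the preCFUE arrays (log2 fold change -3.59 ± 0.16, adjusted p = 2.06e-09). The groups overlapped for neither gene. Of 24 glycolysis genes, 4 were higher and 2 lower, against 7 higher and 1 lower under quantile normalization and 1 lower with any 1 of the 6 arrays left out. Among AMP deaminases, Ampd2 rose by 1.01 ± 0.22 and Ampd3, the red cell form, fell by 2.62 on the log2 scale. In the BCL2 family, Bcl2, which blocks apoptosis, measured 728, 987 and 823 in the MkP arrays, against 144, 111 and 149.8 in the preCFUE arrays (log2 fold change 2.51 ± 0.22, adjusted p = 1.82e-06), its relative Bcl2l1 rose by 1.07 ± 0.16, and the pro-apoptotic Bid fell to 37.3 ± 6.92 in MkP, against 209.6 ± 65.1 in preCFUE (-2.05 ± 0.47). Of 17 genes of that family 3 were higher and 3 lower. In the tetraspanin and integrin list (32 genes, 7 higher and 6 lower, against 11 higher and 4 lower under quantile normalization), Tspan14 (1.71 ± 0.27) and Itga6 (1.66 ± 0.22) were higher and Tspan8 (-3.16 ± 0.22) and Cd82 (-1.31 ± 0.21) lower. In a list of 30 vimentin, galectin and actin-binding genes, 9 were higher and 4 lower: Vim rose by 1.65 ± 0.17 and the actin regulator Coro1a by 2.94 ± 0.27, while the galectins Lgals1 (-2.97 ± 0.33) and Lgals9 (-1.99 ± 0.35) fell.

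Genes named for stem or multipotent cells were mostly higher in MkP: 21 of 37 passed as higher and 1 as lower, with a median of 0.99, the second largest median of the lists described here after platelet signalling. Of these 21, 7 also stand in a platelet, megakaryocyte or transcription factor list. Ctla2a, a protease inhibitor, measured 829, 838 and 824 in the MkP arrays, against 36.6, 18.1 and 39.3 in the preCFUE arrays, and its neighbour in the family Ctla2b rose by 3.77 ± 0.34. These close copies may share signal on the array. Cd93 (3.89 ± 0.17), Adgrg1 (2.39 ± 0.19), Cd34 (1.98 ± 0.30) and the angiopoietin receptor Tek (1.95 ± 0.26) also rose. Tek and Kdr were 2 of the 3 among 13 endothelial and stromal markers that passed as higher, with a summed level of 412 to 499 in MkP, against 244 to 266 in preCFUE, while Cdh5 was 11.2 ± 0.970 in MkP and 13.6 ± 4.39 in preCFUE and Pecam1 16.6 ± 1.78 in MkP and 12.98 ± 1.09 in preCFUE, and the part of endothelial cells was not tested. Mllt3 was the 1 lower gene (-1.14 ± 0.31), a call lost without MkP replicate 1, without MkP replicate 3, without preCFUE replicate 1 or without preCFUE replicate 3 (adjusted p = 0.0612 to 0.103). All MkP values of Ctla2a exceeded those of preCFUE.

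Cytokine receptor genes and erythropoietin response genes gave calls in both directions. Of 35 cytokine receptor genes, 5 were higher and 3 lower. Epor, the erythropoietin receptor, measured 119, 72.7 and 60.95 in the MkP arrays, against 270.4, 220.3 and 201 in the preCFUE arrays (log2 fold change -1.33 ± 0.22, adjusted p = 0.00076), and Ifngr1, a chain of the interferon gamma receptor, fell by 2.17 on the log2 scale. Il6ra, a chain of the interleukin 6 receptor, rose by 1.97 ± 0.27. Among 24 erythropoietin response genes, 6 were higher (3 without preCFUE replicate 1) and 3 lower. The higher ones included the kinase Pim1 (1.21 ± 0.19) and the feedback inhibitor Socs2 (0.97 ± 0.17), which many cytokine receptors induce. The lower ones included Epor itself and Kel (-3.15 ± 0.21). Of 37 TGF-beta and BMP genes, 3 were higher and 0 lower (8 higher and 1 lower under quantile normalization), among them the receptor Acvr1b (2.08 ± 0.20) and the signal transducer Smad1 (1.74 ± 0.20). Of 27 interferon response genes, 0 were higher and 8 lower (5 without MkP replicate 1 or preCFUE replicate 1, and 2 higher and 7 lower under quantile normalization). The immunity GTPase Irgm1 was among them (-1.39 ± 0.33), a call lost without MkP replicate 1 or without preCFUE replicate 1 (adjusted p = 0.051 to 0.053).

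Granulocyte and monocyte genes were higher in 7 of 33 and lower in 0, with Nkg7 (2.71 ± 0.25), Lyz2 (2.02 ± 0.33) and the receptor gene Csf1r (1.25 ± 0.29) among them. Csf1r measured 143, 64.4 and 148 in the MkP arrays, against 44.4, 39.99 and 29.8 in the preCFUE arrays, and Lyz2 148, 169 and 116 in the MkP arrays, against 18.4, 26.7 and 25.1 in the preCFUE arrays. MkP values of both genes stood above preCFUE on every array. Both also stand in the list of macrophage markers, where 3 of 12 were higher and 0 lower (the other was Adgre1), with a summed level of 386 to 453 in MkP, against 179.5 to 206 in preCFUE. The remaining 9 macrophage markers, among them C1qa, C1qb, Cd5l, Marco and Mrc1, had means of at most 22.6 in MkP and 19.5 in preCFUE, and the part of such cells in these values was not tested. Of 29 lymphoid genes, 2 passed as higher, among them the B cell receptor chain Cd79b (1.41 ± 0.30), and 0 as lower (1 higher without MkP replicate 2, MkP replicate 3, preCFUE replicate 1 or preCFUE replicate 3). The remaining lists gave 3 higher (13%) and 0 lower of 23 immediate-early genes, and 0 higher and 2 lower (7.14%) of 28 autophagy and mitophagy genes. Of 34 cholesterol and fatty acid synthesis genes, 1 was higher (2.94%) and 6 were lower (17.6%). Each of these counts moved with the settings. The immediate-early list gave 0 higher without MkP replicate 1, MkP replicate 3, preCFUE replicate 1 or preCFUE replicate 2, and 1 lower without MkP replicate 3. Under quantile normalization the autophagy list gave 2 higher and 0 lower, and its median of -0.15 turned to 0.028. The cholesterol list gave 2 higher and 2 lower under quantile normalization, 3 lower without MkP replicate 3, and 0 higher with any 1 of the 6 arrays left out.

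The place of preMegE on these differences was read from the contrasts of each fraction with it, which share the 5 preMegE arrays, so each contrast's own values are given side by side. Replicate 3 of preMegE was brighter than the others (75th percentile of intensity 74.4, against 53.5 to 62.5), and these contrasts were not refitted without it. In MkP against preMegE, 1884 genes passed (10.4%), 724 higher (3.98%) and 1160 lower (6.38%). In preCFUE against preMegE, 1603 passed (8.81%), 877 higher (4.82%) and 726 lower (3.99%). Platelet signalling genes were higher in 17 of 44 and lower in 0 in MkP against preMegE, and higher in 0 and lower in 17 in preCFUE against preMegE. Stem or multipotent genes were higher in 12 of 37 and lower in 6 in MkP, and higher in 0 and lower in 16 in preCFUE. Red cell membrane genes were higher in 3 of 35 and lower in 17 in MkP, and higher in 11 and lower in 4 in preCFUE. Heme genes were lower in 4 of 22 and higher in 0 in MkP, and higher in 8 and lower in 0 in preCFUE.

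Genes of division and synthesis took another form. Of 48 G2 and M phase genes, which gave 4 calls between MkP and preCFUE, 30 were higher and 1 lower in MkP against preMegE, and 33 were higher and 1 lower in preCFUE against preMegE, with a median of 0.90 for MkP and 1.04 for preCFUE. Of 42 S phase genes, 7 were higher in MkP and 21 in preCFUE, with 0 lower in either. Ribosome biogenesis genes were higher in 0 and lower in 3 of 39 in MkP, and higher in 12 and lower in 0 in preCFUE. Purine, pyrimidine and folate genes were higher in 4 and lower in 1 of 37 in MkP, and higher in 18 and lower in 0 in preCFUE.

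Single genes passed in different contrasts with preMegE. Pf4 was higher in MkP (6.60 ± 0.16, adjusted p = 8.94e-12) and did not pass in preCFUE (-0.33 ± 0.16, adjusted p = 0.307). Car1 was lower in MkP (-5.34 ± 0.29, adjusted p = 3.22e-08) and did not pass in preCFUE (0.78 ± 0.29, adjusted p = 0.134), with 4757 ± 778 in preMegE. Aqp1 had a like pattern, lower in MkP (-3.48 ± 0.24, adjusted p = 3.51e-07) and not called in preCFUE (0.073 ± 0.24, adjusted p = 0.976), with 1015 ± 240.3 in preMegE. Ctla2a and Sphk1 passed in the contrast of preCFUE and not in that of MkP. Ctla2a did not pass in MkP (-0.26 ± 0.27, adjusted p = 0.612) and was lower in preCFUE (-4.45 ± 0.27, adjusted p = 1.84e-07), with 1012 ± 193 in preMegE. Sphk1 did not pass in MkP (-0.15 ± 0.14, adjusted p = 0.551) and was higher in preCFUE (4.27 ± 0.14, adjusted p = 3.85e-10), with 20.7 ± 4.05 in preMegE. Mycn was higher in MkP (0.94 ± 0.26, adjusted p = 0.0352) and lower in preCFUE (-3.74 ± 0.26, adjusted p = 6.96e-07), with 557 ± 229 in preMegE. Mt2, the metallothionein gene, moved in both contrasts, lower in MkP (-1.09 ± 0.13, adjusted p = 9.16e-05) and higher in preCFUE (3.55 ± 0.13, adjusted p = 2.14e-09), with 123 ± 14.4 in preMegE. Trib2, a pseudokinase, was lower both in MkP (-5.50 ± 0.21, adjusted p = 6.90e-10) and in preCFUE (-1.07 ± 0.21, adjusted p = 0.00437), with 1582 ± 296 in preMegE.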

How the data were processed

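Expression was measured on 17 Affymetrix 3-prime arrays. The authors deposited RMA intensities, linear and 1 per probe set, per the submitters' processing notes, and the design text names more than 1 round of amplification. The RMA version is not given in the sources used here. Of 45101 probe sets, 34945 had 1 gene symbol, 932 several and 9160 none listed, and 64 were controls. The probe set with the highest mean stood for each of 18193 genes. For some named genes with several probe sets, among them Mycn, Slamf1, Trib2, Myh10, Itgb3 and Mmrn1, 0 of the others passed in the same direction. Dim values have no stated background level, and 47.3% of values lay under 16, so a dim value does not show absence. The number of arrays limits the precision.

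Values were taken as log2(intensity + 16) and fitted with limma 3.58.1 under R 4.3.3 on all 17 arrays with a term per fraction (12 residual and 2.01 prior degrees of freedom). The 46 gene lists and the members were chosen with earlier results of these data known. Named genes were the sort genes, the 15 largest rises and falls whose arrays did not overlap, and from each list up to 4 called members per direction and up to 3 abundant members not called. Some whose calls did not hold in each setting were left out, and a few others were named after their values were seen. On simulated data over 18193 genes, with changes added to the MkP arrays, 48% of 100 genes changed by 1 on the log2 scale and 93% of 100 changed by 2 were recovered, with 6.62% false among calls. The changed genes were drawn from brighter genes only and were far fewer than the genes called in the data. These rates therefore do not describe dim genes. Alternatives covered the pseudocount, filters, scaling, probe set choice, array weights, a replicate block and leaving out arrays. Promoter windows come from RefSeq (GRCm38.p6).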

Additional observations from a re-analysis of the deposited data

Results flagged for a closer look

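Among the 8 genes whose preMegE levels are given with an SD, Mycn had 1 preMegE value far from the others. Replicate 3 stood at 964.7, against 426 to 483 in the other 4 preMegE arrays. Chance flags about 1 in 20 such groups. The array was also bright as a whole, with a 75th percentile of intensity of 74.4, against 53.5 to 62.5 in the other 4 preMegE arrays. The part of that brightness in the Mycn value was not tested. The Mycn value enters the contrasts of that gene with preMegE, which were not refitted without it, and, through the shared estimate of spread, the SE and adjusted p of MkP against preCFUE. In the limma fit of only the 6 MkP and preCFUE arrays, which holds no preMegE value, Mycn was higher in MkP by 4.69 on the log2 scale (adjusted p = 3.45e-05).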

How the results depend on the processing

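Of 2959 genes past the test, leaving out 1 of the 6 arrays gave 1789 to 2771 (648 to 947 higher and 1125 to 1824 lower), and of the 417 and 906 that differed at least 2-fold, 384 to 420 higher and 626 to 1031 lower. Of the 2959 main calls, 1753 (without preCFUE replicate 1) to 2400 (without MkP replicate 2) passed the same way with 1 array left out. The filter on SD over mean above 0.5 tested 2141 genes and gave 1172 calls, 527 higher and 645 lower, of which 529 were at least 2-fold lower. Quantile normalization gave 1184 lower genes, 423 of them at least 2-fold lower, and of the 2959 main calls 2060 passed the same way and 4 turned sign, and the cause was not tested. Array weights gave 4796 calls, 1673 higher and 3123 lower, and the cause was not tested. Counts of at least 2-fold changes depend on the pseudocount by construction: 649 were higher with a pseudocount of 1, and 233 higher and 504 lower with a pseudocount of 64. The mean over probe sets gave 244 higher and 589 lower at that fold, and of the 2959 main calls 2557 passed the same way and 5 turned sign. Median centring put 29.6% of calls on the higher side. Replicate numbers did not pair the samples (correlations of same-numbered deviations -0.14, -0.257 and 0.0266), and with the replicate block 2143 genes passed. MkP and preCFUE hold the same replicate numbers, so the fold changes and list medians cannot change in that block, only the calls. That block left 4 lower S phase and 11 lower respiratory chain genes, and Fcgr2b, Mllt3 and Sdhd did not pass in it. Without the CLP arrays, chosen after seeing the data, 3722 passed. Among named genes not called, Eng turned to 0.163 under quantile normalization, and with 1 array left out Ngp ran from -0.205 to 1.82, Cpa3 from -0.0222 to 0.253 and Cdh5 from -0.18 to 0.00701. Dim probe sets limit what these arrays can show: 97 called genes had a mean under 16.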
